A study of Mus musculus with 8 samples.

Results

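The comparison described here set liver RNA of mice given leptin at 25 ng/hr against that of mice given 12.5 ng/hr, and its members were the 5 arrays, of 8 in the study, whose sample titles name these doses. Titles place replicates 6, 7 and 8 at 25 ng/hr and replicates 4 and 5 at 12.5 ng/hr, and the remaining 3 arrays, replicates 1, 2 and 3, at 0 ng/hr. All mice were adult males of the ob/ob strain according to the series title, so both dose groups and the controls lacked functional leptin of their own, and treatment lasted 12 days. The route of delivery is not stated in the labels. The agent field contradicts the titles, since it reads untreated for the arrays at 25 ng/hr and leptin for those at 0 ng/hr, whereas titles, source names and stated doses put every array in the same group, and these were used.

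Leptin is a hormone of fat cells that acts through the leptin receptor and its associated kinase JAK2, and mice without it are obese, eat to excess and accumulate liver fat. In liver, the fibrous extracellular matrix is made mainly by stellate cells and portal fibroblasts, which secrete collagens, the enzymes that trim and crosslink them, and the proteoglycans that bind them. Matrix is removed by metalloproteinases and cathepsins, whose genes are often active in the same tissue as those of the collagens.

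Each array was 1 section of a single Illumina BeadChip and measured biotin-labelled cRNA. Between 12094 and 12783 of 25697 probes were above background per array, with mean intensities of 456 to 532. The liver identity was checked with hepatocyte markers: 11 of 15 listed genes were tested, none passed the test between the doses (adjusted p of at least 0.31, limma), and their summed signal was 222845 to 224740 at 12.5 ng/hr and 225146 to 228122 at 25 ng/hr. Lepr, which encodes the receptor of leptin, stayed at background level on all 5 arrays (log2 signals of 4.43 to 4.79), and no fold is given for it. The labels do not say that each array came from a separate animal, so the p-values measure the spread between these samples only, and the number of arrays limits their precision. The order of the 8 positions on the BeadChip follows the dose.

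At the higher dose the liver held less RNA of 10 of the 73 matrix genes tested, among them the collagen genes Col1a1, Col3a1 and Col6a1. Signals of a group of histone H4 genes were higher. The guanylate-binding protein gene Gbp2b was higher too, but was tested only because it was above background on the arrays at 25 ng/hr. Of 10118 features tested, 43 (0.425%) passed an adjusted p of 0.05 in the limma fit, 31 of them lower (0.306%) and 12 higher (0.119%) at 25 ng/hr. Below, fell and rose are used only of features that passed. The 31 lower features included 10 genes of the matrix lists, and no gene of those lists was among the 12 higher features. Those lists, like all lists used here, were chosen with earlier results of these data known. Their share of the calls and their ranks are therefore a description. Differences among the 43 ranged in size from 0.64 to 2.14 on the log2 scale, and 26 were over 2-fold. In all 43 the 3 values at 25 ng/hr lay wholly on one side of the 2 values at 12.5 ng/hr, a pattern that 31.1% of all features tested also showed. The median difference of all features was 0.00.

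The calls depended on both small groups. Without replicate 4 at 12.5 ng/hr, limma called 0 features, with 1175 at an unadjusted p under 0.05, and without replicate 5 it called Capn6 only. Without replicate 6 at 25 ng/hr it called 12 features (4 higher, 8 lower), without replicate 7 it called 16 (2 and 14), and without replicate 8 it called 13 (7 and 6), so that lower calls no longer outnumbered higher ones. The 43 features had the same direction in each of these fits. With position on the BeadChip as a covariate 0 features passed and 806 had an unadjusted p under 0.05, again with the same direction for all 43, so that a trend along the chip and the dose cannot be told apart.

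**Figure D1:**
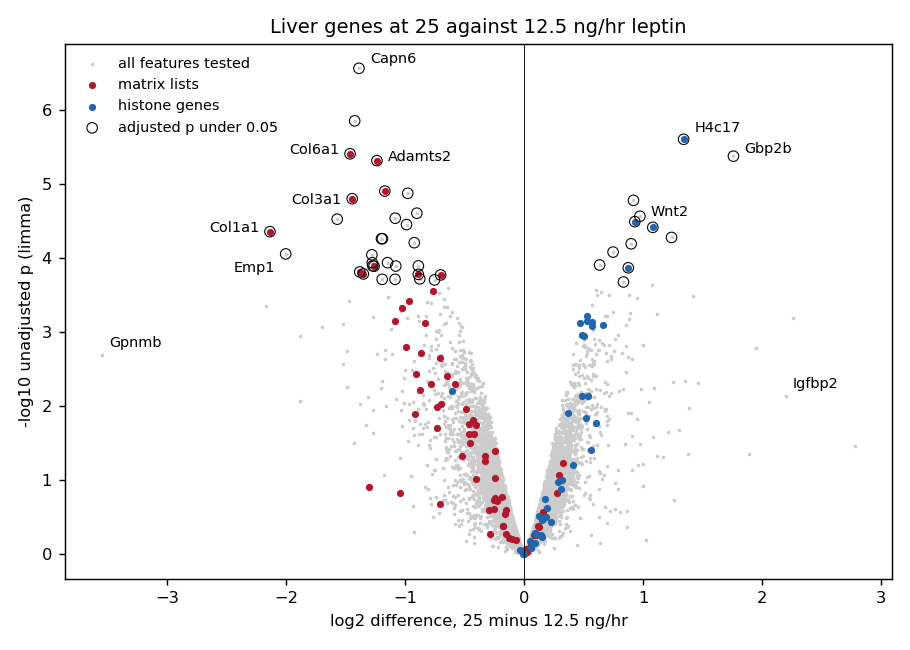
Each point is a feature, with the log2 difference between 25 and 12.5 ng/hr on the horizontal axis and the unadjusted limma p on the vertical axis as -log10. Red points are the 73 tested genes of the matrix lists, blue points the 39 tested histone genes, and circles the 43 features with an adjusted p under 0.05, of which 31 lie to the left of 0 and 12 to the right.

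Among the collagen genes, 3 of the 20 tested fell and none rose, beside 0.306% and 0.119% of all features. Regardless of the threshold, 14 of the 20 were below 0 and 6 above. Col1a1, which encodes the alpha 1 chain of type I collagen, the main fibre of scar tissue, had log2 signals of 6.80 and 6.64 at 12.5 ng/hr and of 4.52, 4.73 and 4.50 at 25 ng/hr. All 3 arrays at the higher dose were at background level. After background correction its signal was therefore at least 3.52-fold lower at 25 ng/hr (fitted log2 difference -2.14, SE 0.29, adjusted p 0.0249, limma). That bound includes no sampling error. Without background correction the log2 difference was -1.03, and the authors' deposited ratio between 25 and 12.5 ng/hr was 0.432.

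Col3a1, for the type III chain that is laid down together with type I, read 6.27 and 6.22 at 12.5 ng/hr and 4.73, 5.15 and 4.53 at 25 ng/hr. The 3 higher-dose arrays were all lower, and 1 of them was above background (log2 difference -1.45, SE 0.17, adjusted p 0.0170, limma). A second Col3a1 probe did not pass the detection filter, and the authors' deposited table gives it a ratio of 1.006 between 25 and 12.5 ng/hr, against 0.587 for the probe used. Col6a1, a chain of the beaded filaments of type VI collagen, read 7.92 and 8.12 against 6.61, 6.58 and 6.48, without overlap and well above background on every array. It fell by 1.46 on the log2 scale (SE 0.15, adjusted p 0.00824, limma), a fold of 2.76 in favour of the lower dose, and its other probe gave -1.56.

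The other collagen genes missed the threshold. Col1a2, whose chain pairs with that of Col1a1 in type I collagen, read 5.52 and 5.50 against 4.55, 4.51 and 4.55, at background level on all 3 arrays of the higher dose (at least 1.52-fold lower, adjusted p 0.0669, limma). Col4a1 and Col4a2, the basement membrane chains encoded side by side, differed by -0.84 and -0.77 (adjusted p 0.0852 and 0.0609), Col5a1 by -1.09 (0.0852) and Col16a1 by -0.88 (0.184). Smaller values, between -0.43 and 0.29, were measured for Col14a1, Col6a2, Col4a5, Col11a2, Col12a1, Col15a1, Col4a6, Col18a1, Col27a1, Col11a1, Col2a1 and Col5a3. The median was -0.15 for the 9 fibrillar and -0.40 for the 11 other collagens, beside 0.00 for all features. The fibrillar median was -0.57 without replicate 5 and -0.09 without replicate 4 at 12.5 ng/hr, -0.55 and -0.56 without control replicate 1 or 3, and -0.04 on the authors' scaled intensities. The median of the other collagens lay between -0.77 and -0.14 over the alternatives.

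Of the genes that process and crosslink collagen, 2 of 13 tested fell. Adamts2 encodes the proteinase that removes the N-terminal propeptide of procollagen. It read 8.91 and 8.71 at 12.5 ng/hr and 7.69, 7.59 and 7.45 at 25 ng/hr, with the 3 higher-dose arrays all lower (log2 difference -1.24, SE 0.13, adjusted p 0.00824, limma). Its other probes gave -1.29 and -0.86. Loxl1, a lysyl oxidase family member that crosslinks elastin and collagen, read 7.01 and 7.03 against 5.78, 5.77 and 5.46 (log2 difference -1.35, SE 0.22, adjusted p 0.0453, limma). Pcolce, which enhances cleavage of the C-terminal propeptide, differed by -0.87 with an adjusted p of 0.123, and the median of the list was -0.18. Fkbp10, a prolyl isomerase of the endoplasmic reticulum that assists collagen folding, was not a list member and fell too, by at least 1.40-fold against 3 arrays at background level (adjusted p 0.0478, limma). Fkbp10, like Col1a2, was above background on 1 control array and passed the detection filter only through the group at 12.5 ng/hr.

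The proteoglycan and glycoprotein genes lay lower nearly throughout: 25 of 26 tested were below 0, with a median of -0.44, and 3 fell. Lum, for lumican, a small leucine-rich proteoglycan that spaces collagen fibrils, read 7.63 and 7.84 against 6.30, 6.14 and 6.62 (log2 difference -1.38, SE 0.22, adjusted p 0.0447, limma). Bgn, for the related proteoglycan biglycan, had high signals of 11.86 and 11.86 against 11.28, 11.16 and 11.04 (log2 difference -0.70, SE 0.11, adjusted p 0.0453). Sparc, for a collagen-binding glycoprotein, read 9.65 and 9.94 against 9.01, 8.88 and 8.82 (log2 difference -0.89, SE 0.14, adjusted p 0.0453). None of these overlapped between the doses. Dcn, for decorin, at -0.71, and Thbs2, for a thrombospondin, at -0.91, did not overlap either but missed the threshold (adjusted p 0.130 and 0.154).

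Genes of matrix breakdown lay lower as well. Mmp2, for gelatinase A, read 7.01 and 7.02 at 12.5 ng/hr and 5.82, 5.98 and 5.46 at 25 ng/hr, and fell by 1.26 on the log2 scale (SE 0.20, adjusted p 0.0398, limma). Ctsk, for a cathepsin that cleaves triple-helical collagen, read 6.57 and 6.41 against 5.43, 5.15 and 5.37 and fell by 1.17 (SE 0.14, adjusted p 0.0170). Timp1 and Timp2, inhibitors of the metalloproteinases, differed by -0.99 and -1.02 (adjusted p 0.118 and 0.0749). Of the 14 tested genes 2 fell, 12 were below 0, and the median was -0.67. Across the 5 matrix lists, 10 of 73 tested genes fell and none rose, beside 0.306% and 0.119% of all features. In these lists 59 genes were below 0 and 14 above, and the median was -0.43. Without overlap, 41 lay below, beside 16.9% of all features. The medians of all 5 lists were below 0 under each of the 18 alternatives tried.

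**Figure D2:**
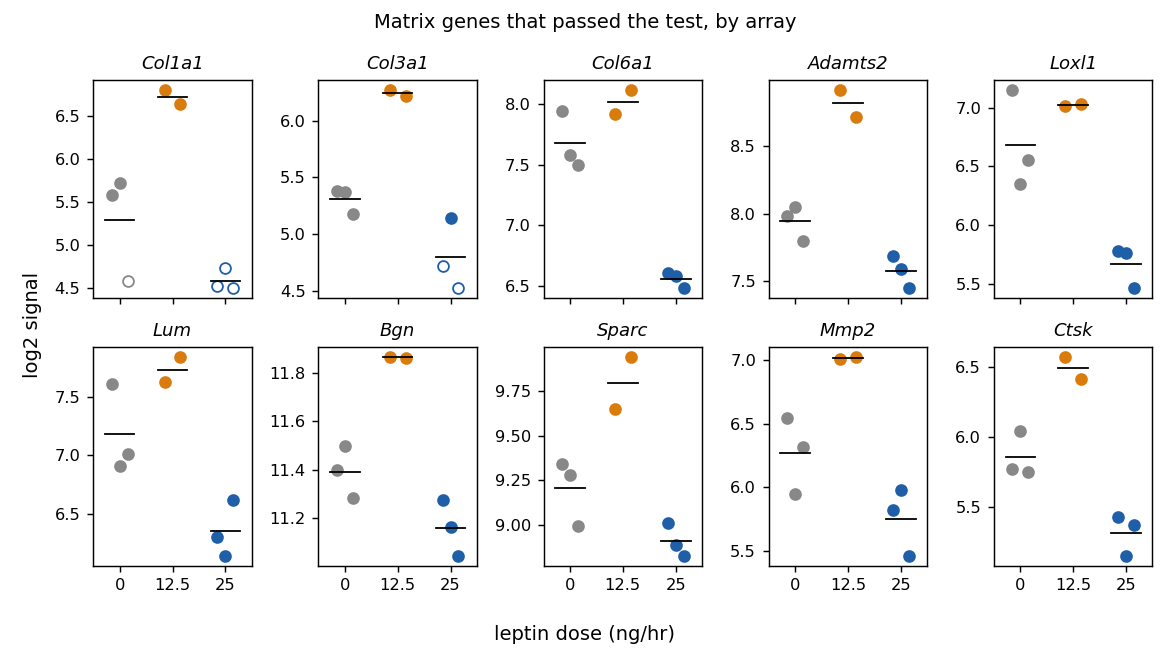
Log2 signal of the 10 matrix genes that passed the test, by leptin dose, with 1 point per array (grey 0, orange 12.5, blue 25 ng/hr), open points where the array was not above background and black lines at group means. Vertical axes differ between panels and do not start at 0; in every panel the 3 blue points lie below both orange points.

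Most listed markers of the cells that make matrix had lower signals too, but part of that list consists of matrix genes. The stellate cell and fibroblast list had 16 of 20 genes tested, of which 14 were below 0, with a median of -0.65, and the 3 that fell, Col1a1, Col3a1 and Lum, are matrix genes themselves. Its summed signal was 11696 to 12023 at 12.5 ng/hr and 6599 to 8044 at 25 ng/hr, with 8012 to 13288 in controls. Most of the sum at both doses came from the matrix gene Dcn, so it says little about the other members. Dcn read 12.94 and 12.95 at 12.5 ng/hr and 12.45, 12.24 and 12.03 at 25 ng/hr. In controls Acta2 read 12.10 in replicate 1 but 8.98 and 7.80 in replicates 2 and 3. None of the 16 was below background on all 5 arrays. Pdgfra, a growth factor receptor of fibroblasts, differed by -1.27 (adjusted p 0.0801), and Reln, for reelin, by -0.58 (0.170). Of the 16 genes tested, 10 lay below without overlap, beside 16.9% of all features, and 1 lay above, beside 14.2%. Those below include Col1a1, Col1a2, Col3a1, Lum, Dcn and Reln, which are also in the matrix lists. The count and the median of this list are therefore in part the matrix result over again. Lrat, which stores retinol as esters, overlapped between the doses and differed by -0.46 (SE 0.44). Des, for desmin, and Acta2, for smooth muscle actin, overlapped too, at -0.20 (SE 0.48) and -0.43 (SE 1.04). Lrat, Des and Acta2 were singled out after their values were seen. The list of smooth muscle, mesothelial and capsule cells summed to 4458 to 5841 against 3562 to 4715, with 0 of 9 genes called and a median of -0.21 (-0.37 without replicate 4, -0.07 without replicate 5 and -0.33 without control replicate 1). In bulk tissue, fewer cells of a type and less RNA per cell cannot be told apart, and the part of cell content in the matrix result was not tested.

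The growth factor pathway that drives matrix production lay lower, with no called member, beside 0.425% of all features called. Of 20 tested genes of TGF-beta and PDGF signalling, 18 were below 0, with a median of -0.34. Without overlap, 14 lay below, beside 16.9% of all features, and 0 above, beside 14.2%. The lowest was Pdgfra, also in the fibroblast list, at -1.27 (adjusted p 0.0801, limma). The latent TGF-beta binding protein gene Ltbp3 differed by -0.74 and the TGF-beta-induced gene Tgfbi by -0.61, with adjusted p of 0.120 and 0.135. The ligand gene Tgfb1 differed by -0.05 and the signal transducer Smad3 by 0.09.

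Capn6 had the smallest adjusted p of the comparison. It encodes a calpain that lacks protease activity and binds microtubules. Its signals were 6.17 and 5.99 at 12.5 ng/hr and 4.66, 4.67 and 4.74 at 25 ng/hr, the latter all at background level. After background correction it was at least 2.26-fold lower (SE 0.10, adjusted p 0.00281, limma). Without that correction the log2 difference was -0.60. Ccdc3, for a secreted coiled-coil protein, read 8.69 and 8.66 against 7.38, 7.09 and 7.27 and fell by 1.43 (SE 0.13, adjusted p 0.00719). Emp1, for an epithelial membrane protein, read 7.88 and 8.15 against 6.17, 5.99 and 5.86 and fell by 2.01 (SE 0.30, adjusted p 0.0354), a fold of 4.02. In each of these genes the dose groups were apart by more than their own range.

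Several of the remaining lower genes have roles in steroid, glycerol and creatine handling. Akr1c18, for the enzyme that inactivates progesterone, was at background level on all 3 arrays at 25 ng/hr and at least 2.14-fold lower (adjusted p 0.0217, limma). Aqp7, a channel that carries glycerol, read 6.17 and 5.84 against 4.64, 5.12 and 4.65 (log2 difference -1.20, adjusted p 0.0266), and its other probes gave -1.23 and -0.63. Only 1 of its 3 arrays at 25 ng/hr was above background, and without background correction the difference was -0.52. The creatine transporter gene Slc6a8 fell by 1.15 (adjusted p 0.0398).

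Genes of other functions made up the rest of the lower set. Mfge8, for a secreted protein that bridges phagocytes and dying cells, read 11.34 and 11.17 against 10.35, 10.30 and 10.18 and fell by 0.98 (adjusted p 0.0170, limma). The stress-induced nuclear protein gene Nupr1 fell by 0.92, the Notch target gene Hey1 by 0.88, and Nuak1, for an AMPK-related kinase, by 0.89. Nfe2, a transcription factor of the erythroid and platelet lineages, was at least 1.98-fold lower (adjusted p 0.0478), while the erythroid list had 0 of 5 genes called and a median of -0.10. The last 8 had log2 differences of -1.28 for Olfml3, -1.28 for Bhlhb9, -1.27 for Fndc10, -1.19 for Fam180a, -1.09 for Ccdc120, -1.08 for Ppic, which encodes cyclophilin C, -0.99 for Zfp608 and -0.90 for Fam110c.

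Of the 12 higher features, 4 were genes of histone H4, the core histone whose copies lie in clusters of replication-dependent histone genes. Such genes are transcribed mainly in S phase, and their mRNAs end in a stem-loop in place of a poly(A) tail. Whether the labelling takes up mRNAs without a tail in proportion to their amount was not tested. The promoters of the 4 genes, all on chromosome 13, are shown because these members moved together. They are the 150 bases before and 30 bases after the annotated start, 5′ to 3′ on the gene's strand, from RefSeq on GRCm38.p6. Capitals mark GGTCCG, the core of an element of H4 promoters that binds the factor HINFP, and the letters TATAA, which TATA boxes contain. Relative to the annotated start, TATAA began at 12 in H4c8, past that start, at -2 in H4c11 and at -16 in H4c12. H4c17 held it more than once. The marked TATAA are therefore matches of letters only, and whether any is a working TATA box was not tested.

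H4c17 (chr13:21811596-21811775, plus strand): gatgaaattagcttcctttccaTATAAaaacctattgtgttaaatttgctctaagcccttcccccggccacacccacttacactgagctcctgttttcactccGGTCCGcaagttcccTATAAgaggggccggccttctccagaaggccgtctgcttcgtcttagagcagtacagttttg
H4c12 (chr13:21750524-21750703, minus strand): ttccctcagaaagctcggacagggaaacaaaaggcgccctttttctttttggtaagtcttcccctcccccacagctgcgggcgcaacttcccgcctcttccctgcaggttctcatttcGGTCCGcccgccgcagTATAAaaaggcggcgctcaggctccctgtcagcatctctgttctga
H4c8 (chr13:23530894-23531073, plus strand): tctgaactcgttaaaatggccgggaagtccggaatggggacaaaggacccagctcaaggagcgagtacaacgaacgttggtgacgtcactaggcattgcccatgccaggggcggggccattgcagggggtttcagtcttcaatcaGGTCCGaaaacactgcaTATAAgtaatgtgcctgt
H4c11 (chr13:21734884-21735063, plus strand): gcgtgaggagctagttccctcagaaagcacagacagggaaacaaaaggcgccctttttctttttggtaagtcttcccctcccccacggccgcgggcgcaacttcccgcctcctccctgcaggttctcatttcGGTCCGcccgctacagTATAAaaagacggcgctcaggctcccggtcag

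All 4 windows held both motifs. On either strand, GGTCCG was found in 5.5% of 26742 RefSeq promoter windows of this length and TATAA in 16.2%. The motif CCAAT, in 27.6% of windows, was in none of the 4. The STAT motif TTCNNNGAA (5.03%) and the core of the interferon-stimulated response element, GAAA and GAAA with 2 bases of any kind between them (1.93%), were in none of the 4 either. A match is a description of the letters and not of factor binding. GGTCCG belongs to H4 promoters in general, and the H4 genes that were not called were not compared. Its presence therefore says nothing about the change in signal. The windows of H4c11 and H4c12 are also largely alike, so the 4 are not separate observations.

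H4c17 read 5.80 and 5.55 at 12.5 ng/hr and 6.93, 6.98 and 7.14 at 25 ng/hr. The 3 higher-dose arrays were all higher, and the gene rose by 1.34 on the log2 scale (SE 0.13, adjusted p 0.00824, limma), a fold of 2.54. H4c12 read 6.0 and 5.98 against 6.89, 7.18 and 7.17 and rose by 1.08 (SE 0.14, adjusted p 0.0231). H4c8 read 7.75 and 7.75 against 8.77, 8.76 and 8.51 and rose by 0.93 (SE 0.12, adjusted p 0.0219). H4c11 read 6.54 and 6.30 against 7.32, 7.26 and 7.31 and rose by 0.88 (SE 0.14, adjusted p 0.0405). No values overlapped between the doses in any of these 4 genes. Their coding sequences are nearly alike, so a probe may take up transcripts of several copies, and the 4 results are uncertain as separate genes.

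The histone family as a whole was taken by symbol after these calls had been seen, and gets no test. Of 39 tested genes 35 were above 0, with a median of 0.32 beside 0.00 for all features. All 10 tested H4 genes were above 0 (median 0.57), as were all 8 tested H2B genes (median 0.50) and all 6 H3 genes (median 0.19). H2bc9, for a histone H2B, read 11.16 and 11.02 against 11.64, 11.68 and 11.54 (log2 difference 0.53, adjusted p 0.0801, limma). The linker histone gene H1f2 went the other way, with 12.31 and 12.28 against 11.47, 11.89 and 11.70 (log2 difference -0.61, adjusted p 0.186). The cell cycle list, which holds no histone gene, had 0 of 22 tested genes called and a median of 0.06, a sign that turned under 9 of the 18 alternatives.

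The largest rise among the called genes was that of Gbp2b, for an interferon-inducible GTPase of the guanylate-binding family. Its signals were 4.73 and 4.39 at 12.5 ng/hr, both at background level, and 6.17, 6.41 and 6.40 at 25 ng/hr. After background correction it was at least 2.75-fold higher at the higher dose (SE 0.18, adjusted p 0.00824, limma). Without that correction the log2 difference was 0.81. With 1 control array above background, Gbp2b passed the detection filter only through the group at 25 ng/hr, where it was high. Its promoter window, from the same source, is shown because it holds the interferon response core, in capitals, on the opposite strand.

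Gbp2b (chr3:142594697-142594876, plus strand): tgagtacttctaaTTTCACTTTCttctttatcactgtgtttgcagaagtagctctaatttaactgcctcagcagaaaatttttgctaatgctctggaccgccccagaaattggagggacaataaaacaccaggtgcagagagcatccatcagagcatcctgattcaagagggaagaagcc

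Interferon-stimulated genes were listed as a group. Of 25 tested, Gbp2b alone was called, 11 were above 0 and the median was -0.05. The family members Gbp2 and Gbp3 differed by -0.11 and 0.04, and the antiviral gene Rsad2 by -0.51 (adjusted p 0.376).

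Cxcl13, for the chemokine that attracts B cells, was at background level on both arrays at 12.5 ng/hr, at 4.53 and 4.42, and read 5.42, 5.76 and 5.96 at 25 ng/hr. It was at least 1.80-fold higher (adjusted p 0.0266, limma). No control array was above background for Cxcl13 and 1 was for Gbp2b, so both genes passed the detection filter only through the group in which they were high. The list of T, B and NK cell genes had 0 of 6 called and a median of 0.01. Wnt2, for a Wnt ligand of liver sinusoidal endothelium, read 6.49 and 6.33 against 7.34, 7.44 and 7.38 and rose by 0.97 (SE 0.12, adjusted p 0.0217). The endothelial list had 0 of 15 genes called and a median of -0.05. Its members Clec4g at 0.45 and Lyve1 at -1.03 lay without overlap on opposite sides, with adjusted p of 0.226 and 0.223.

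Of the remaining higher genes, Pigr encodes the receptor that carries IgA across epithelia and into bile. It read 9.87 and 9.95 against 10.60, 10.75 and 10.62 and rose by 0.75 (SE 0.11, adjusted p 0.0352, limma). Pim3, for a serine/threonine kinase, read 10.80 and 10.81 against 11.70, 11.86 and 11.56 and rose by 0.90 (adjusted p 0.0284). Cyp2d13, of the cytochrome P450 family, rose by 0.92 (adjusted p 0.0170), and Sec23b, for a coat protein of vesicles leaving the endoplasmic reticulum, by 0.64 (adjusted p 0.0398).

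**Figure D3:**
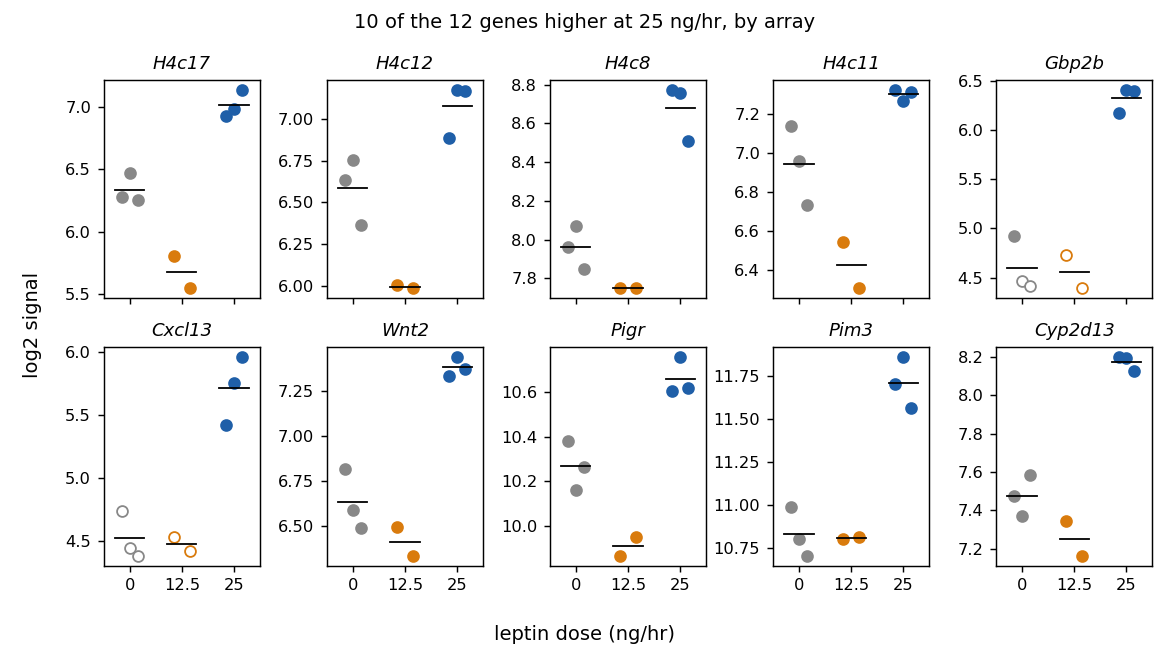
Log2 signal of 10 of the 12 genes higher at 25 ng/hr, by leptin dose, with 1 point per array (grey 0, orange 12.5, blue 25 ng/hr), open points where the array was not above background and black lines at group means. Vertical axes differ between panels and do not start at 0; in every panel the 3 blue points lie above both orange points, as for H4c17 at 6.93 to 7.14 against 5.55 and 5.80.

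Some of the largest differences missed the threshold. Igfbp2, for a circulating binding protein of insulin-like growth factors that leptin is known to raise in liver, read 8.09 and 6.17 at 12.5 ng/hr and 9.73, 9.64 and 8.64 at 25 ng/hr. The doses did not overlap, but the 2 arrays at 12.5 ng/hr were far apart, and the difference of 2.20 had an SE of 0.63 (adjusted p 0.196, limma). Its other probe gave 1.95. The authors' deposited table gives the 2 probes ratios of 3.293 and 3.027 between 25 and 12.5 ng/hr. Leaving out single arrays moved the difference between 1.25 and 3.16: it was lowest without replicate 5 and highest without replicate 4 of the 12.5 ng/hr group.

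Genes of macrophages that take up lipid in fatty liver had the lowest median of the 36 lists, -1.38, with 8 of 9 tested genes below 0 and none called. Gpnmb, a glycoprotein of such macrophages and the largest difference of all features, read 9.75 and 10.42 at 12.5 ng/hr and 6.33, 8.40 and 4.87 at 25 ng/hr (log2 difference -3.55, SE 0.82, adjusted p 0.123, limma), and its other probes gave -1.75 and -0.10. Spp1, for osteopontin, read 10.57 and 10.77 against 9.07, 9.05 and 9.49 (log2 difference -1.47, adjusted p 0.0669). Cd63 differed by -2.17, the lipid receptor gene Trem2 by -1.52 and Lgals3, for galectin-3, by -1.38 (adjusted p 0.0720, 0.135 and 0.211). Trem2 was above background on 1 of the 3 arrays at 25 ng/hr. Other probes of Cd63 gave -1.63 and -1.91, and with every probe a feature the first of these passed (adjusted p 0.0425, limma). The summed signal of the list was 6120 to 8818 at 12.5 ng/hr, 1960 to 3845 at 25 ng/hr and 3124 to 5260 in controls.

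Markers of resident Kupffer cells and other macrophages were listed apart. Of 15 tested genes 9 were above 0, with a median of 0.15 and none called. The scavenger receptor gene Cd163 differed by 0.91, the folate receptor gene Folr2 by 0.75 and Timd4 by 0.53 (adjusted p 0.130, 0.120 and 0.123, limma). The other 6 genes were below 0, the lowest being the macrophage gene Cd68 at -0.59 (adjusted p 0.419, limma).

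Liver genes that are higher in male than in female mice had the highest median of the 36 lists, 0.89: 16 of 17 tested genes were above 0, 10 lay above without overlap, beside 14.2% of all features, and none was called. Elovl3, an elongase of fatty acids, read 5.68 and 5.17 against 7.21, 7.0 and 6.34 (log2 difference 1.42, adjusted p 0.0622, limma). The complement gene C9 differed by 0.89 (adjusted p 0.0801) and the urinary protein gene Mup4, whose near copies may share its probe, by 1.95 (adjusted p 0.120). Other probes of C9 gave 0.88 and 0.51, and with every probe a feature the first of these passed (adjusted p 0.0418, limma). Serpina1e, a member of the alpha-1-antitrypsin family with similar near copies, read 8.43 and 8.62 against 13.61, 11.77 and 8.54, so that replicate 8 lay level with the lower dose. The female-biased list had a median of -0.36 with 8 of 12 genes below 0. That median was -0.03 without replicate 5 and -0.61 without replicate 4 at 12.5 ng/hr, -0.10 without replicate 6 and -0.69 without replicate 8 at 25 ng/hr, and reached -1.29 over the alternatives.

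Among the metabolic lists no gene was called, beside 0.425% of all features. Scd1, the desaturase gene that leptin is known to lower in liver, read 14.85 and 14.80 at 12.5 ng/hr and 14.18, 14.61 and 14.78 at 25 ng/hr (log2 difference -0.31, SE 0.17, adjusted p 0.476, limma). Of the 18 tested genes of fatty acid and triglyceride synthesis 14 were below 0, with a median of -0.31 and none called, among them the synthase gene Fasn at -0.66 and its regulator Srebf1 at -0.39. The medians were -0.23 for 19 sterol synthesis genes (-0.10 without replicate 7), -0.07 for 21 genes of fatty acid oxidation and ketogenesis, -0.17 for 16 lipid droplet genes, -0.17 for 17 genes of glycolysis and sugar handling and 0.02 for 11 genes of gluconeogenesis. For 23 genes of amino acid breakdown and the urea cycle the median was 0.04, for 28 of cytochrome P450 and conjugation 0.02 and for 18 of bile acid synthesis and transport 0.12. 

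Signalling and stress lists gave no call either. Of 20 tested genes of leptin and JAK-STAT signalling none was called and the median was -0.01. The feedback inhibitor gene Socs3 differed by 0.08 and Cish, with signals of 9.19 and 7.78 against 6.92, 7.43 and 7.30, by -1.27 (adjusted p 0.222, limma), a value that was -0.56 without replicate 4 and -1.98 without replicate 5. Medians were 0.08 for 22 genes of the IGF axis and insulin signalling, 0.01 for 29 of the acute phase and complement, 0.15 for 18 of endoplasmic reticulum stress and folding, -0.02 for 12 of antigen presentation and -0.09 for 16 of the circadian clock. Among the cell type lists, medians were -0.26 for 6 cholangiocyte, -0.36 for 5 neutrophil and 0.03 for 7 adipocyte genes. The neutrophil median was -0.68 without replicate 4, -0.12 without replicate 5, -0.04 without replicate 7 and -0.66 without replicate 8. In all, 29 of the 36 lists had no called member. With 0.425% of all features called, a short list would usually hold none. The absence of calls in a list, here or above, therefore does not show that its genes were unchanged.

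**Figure D4:**
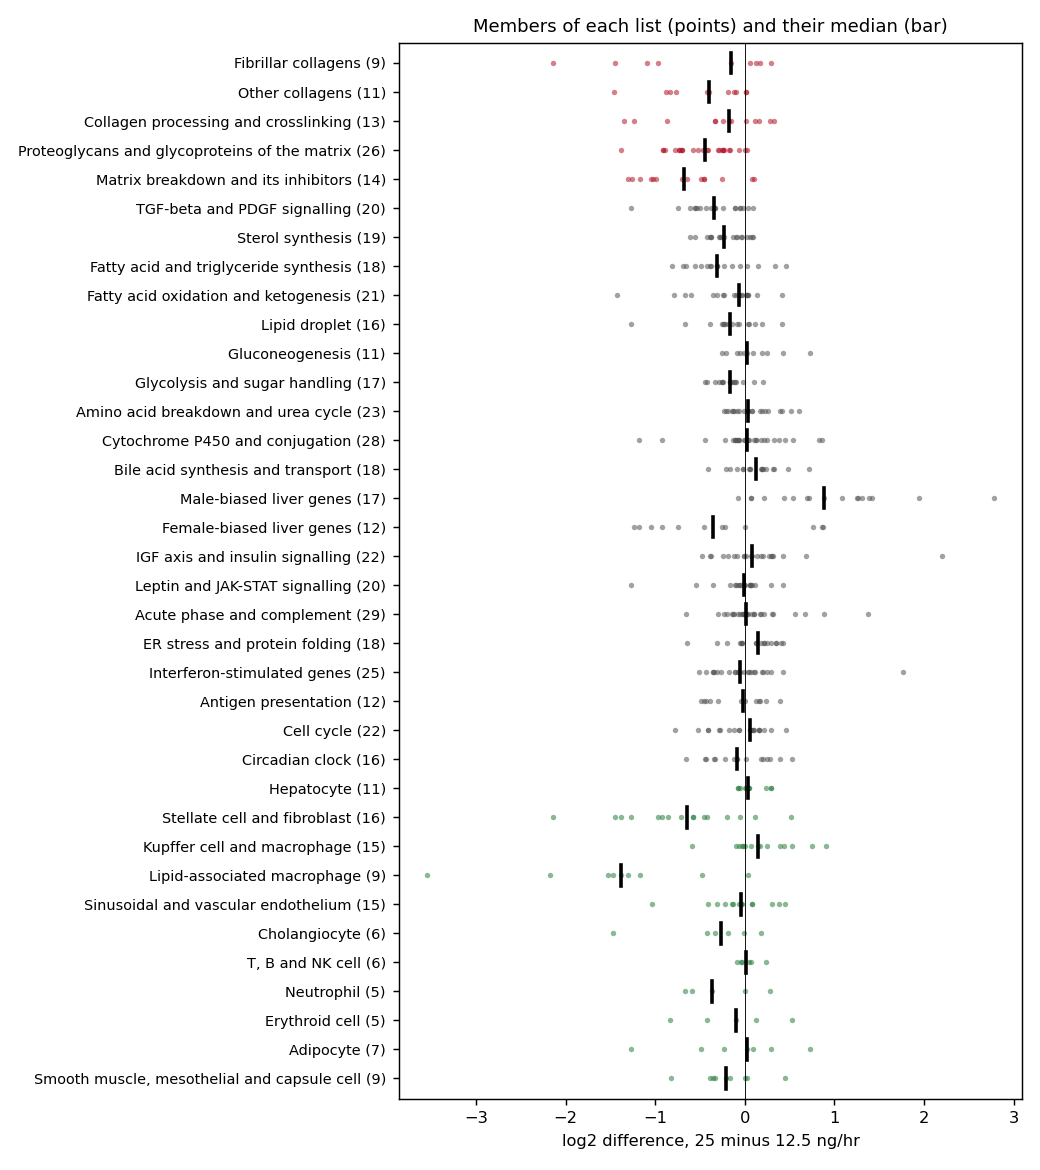
Log2 difference between 25 and 12.5 ng/hr for the tested members of each of the 36 lists (points), with the number tested in parentheses and the median as a black bar; red rows are matrix lists, grey rows pathways and green rows cell types. The bars lie furthest to the left for lipid-associated macrophages at -1.38 and furthest to the right for male-biased genes at 0.89.

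The 3 control arrays at 0 ng/hr place the 2 doses. For 40 of the 43 called features (93%) the control mean lay between the means of the 2 doses, against 34.9% of all features. This held for all 12 higher features and for 28 of the 31 lower ones. Since the features were called on the difference between these doses, the share is a description. Both differences from the controls use the same control arrays and the same dose groups.

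In Col1a1 the control arrays read 5.58, 5.72 and 4.59, with the mean 1.43 below that at 12.5 ng/hr and 0.71 above that at 25 ng/hr. In Adamts2 they read 7.98, 8.05 and 7.79, below both arrays at 12.5 ng/hr and above all 3 at 25 ng/hr. Col6a1 stood otherwise, with controls at 7.95, 7.58 and 7.50, and its difference of -1.12 from control at 25 ng/hr passed the test (adjusted p 0.0176, limma) whereas that of 0.34 at 12.5 ng/hr did not (0.419). The dose groups were tested directly against each other as above.

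H4c17 had controls of 6.28, 6.47 and 6.25, higher than both arrays at 12.5 ng/hr and lower than all 3 at 25 ng/hr. Gbp2b read 4.92, 4.47 and 4.42 in controls, 1 of the 3 above background, close to its level at 12.5 ng/hr. Ccdc120 and Fndc10 were highest in controls, where Fndc10 read 8.50, 8.59 and 8.41 against 7.83 and 8.19 at 12.5 ng/hr and 6.35, 7.04 and 6.82 at 25 ng/hr. Of the 43 features, 15 also passed the test of 25 minus 0 ng/hr, where 90 of 10118 passed (0.89%). In 12.5 minus 0 ng/hr limma called 0 features, with 1163 at an unadjusted p under 0.05.

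**Figure D5:**
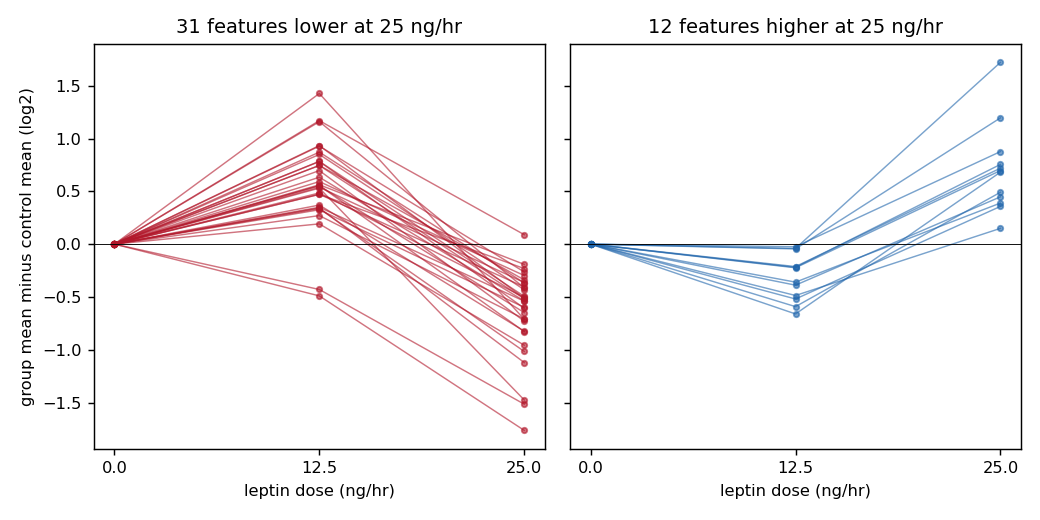
Group means of the called features relative to the control mean (log2), with 1 line per feature over leptin doses of 0, 12.5 and 25 ng/hr. Of the 31 features lower at 25 ng/hr (left) 29 lie above control at 12.5 ng/hr and 30 below control at 25 ng/hr; all 12 higher features (right) lie below control at 12.5 ng/hr and above it at 25 ng/hr.

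The sizes of these differences, and the bounds given as at least a fold, depend on the background correction, most of all in dim genes. Without it all 43 had the same direction, and 26 had a difference more than 1.5 times smaller. Col1a1 then differed by -1.03, Col3a1 by -0.65, Capn6 by -0.60, Gbp2b by 0.81 and H4c17 by 0.77, while bright genes moved little, as Bgn at -0.69 and Mfge8 at -0.95.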

How the data were processed

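Frozen livers were extracted with Trizol and the cRNA carried biotin, per the labels' protocols. No source used here gives the scanner software or a genome build. The authors deposited an intensity on a linear scale and a detection p-value for each of 25697 probes and array, and a second table in which the intensity of each array was multiplied by 1 factor (0.927 to 1.08). Each array then had a mean of 493, and the series' value table held the same numbers. The second table also gives the authors' ratio of group means. It was used as an alternative.

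The unscaled intensities were corrected with normexp from the detection p-values (offset 16), quantile-normalized and log2-transformed by neqc (limma 3.58.1, R 4.3.3). Features needed a detection p under 0.05 on at least 2 arrays, and the brightest probe of a gene was kept. All 8 arrays entered 1 fit of 3 group means, with 5 residual degrees of freedom, and every p is two-sided, from this fit, with Benjamini-Hochberg adjustment over 10118 features. The fit was tested on simulated data. A feature at background level on all arrays of a dose has a bound: the other group's mean against, per array, the higher of its own signal and the lowest signal above background. Such a bound holds for background-corrected signals only and includes no sampling error. Summed signals add a list's signals after background correction.

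Symbols were updated with a RefSeq table of GRCm38.p6, and 560 of the probes kept the name in the file. Named genes were Igfbp2, Lepr and Scd1, all called features, up to 6 members per list by smallest p, and all tested collagens; others named as examples (among them Tgfb1, Smad3, Socs3, Gbp2, Gbp3, Lrat, Des, Acta2, H2bc9 and H1f2) were chosen after their values were seen. The comparison, the members and the 36 lists (695 genes, 536 tested) were chosen with earlier results of these data known. Some called genes are not reported here. Motifs were searched on both strands. Alternatives were other normalizations, filters, probe rules, priors, arrays and chip position.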

Additional observations from a re-analysis of the deposited data

How the results depend on the processing

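The 43 calls (12 higher, 31 lower) varied with the processing. Their number was 78 (31 higher, 47 lower) without background correction, 114 (34 and 80) on the authors' scaled intensities, 17 (7 and 10) without the detection filter, where 17752 features were tested, 44 (19 and 25) with detection on all 8 arrays, where 7979 were, and 78 (30 and 48) with a trended prior. It was 47 (13 and 34) with median scaling, 56 (16 and 40) with every probe a feature, 31 (9 and 22) with array weights and 60 (14 and 46) in a fit of the 5 arrays alone. The lower share was 72.1% of calls, 60.3% without background correction, 61.5% with the trended prior, 58.8% without the detection filter, 56.8% with detection on all arrays and 46.2% without replicate 8. With chip position as a covariate limma called 0 (0 higher, 0 lower), with 806 at an unadjusted p under 0.05; there Acta2 turned to 1.42, Des to 0.61 and Lrat to 0.0405. Leaving out 1 array gave 0 to 61 calls, 0 to 17 higher and 0 to 44 lower, with the sign turned for Acta2 (range -0.87 to 0.0139, without replicate 6) and Lrat (range -0.87 to 0.0317, without replicate 7). The lone array left at 12.5 ng/hr in such fits was assumed to vary like the other groups. Of the 43, 39 also passed with median scaling, 40 without background correction and 37 in the 5-array fit. All 43 had the same direction under every alternative in which they were tested (33 of them with detection on all arrays). The causes were not tested. No paired analysis was possible because the dose groups share no replicate numbers. With 2 arrays at 12.5 ng/hr the median SE of a difference was 0.14 on the log2 scale, and features near background have bounds only.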

Other observations

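The transcriptional repressor gene Bcl6, singled out after its values were seen, read 8.44 and 8.64 at 12.5 ng/hr, 11.50, 11.01 and 9.90 at 25 ng/hr and 9.90, 9.19 and 10.31 in controls. All 3 arrays at the higher dose were above both at the lower dose, and the difference of 2.26 (SE 0.44) missed the threshold (adjusted p 0.0815, limma, and 0.0333 to 0.410 over the alternatives). Cdkn1c, for a cyclin-dependent kinase inhibitor, read 8.10 and 7.97 at 12.5 ng/hr and 7.10, 7.25 and 7.41 at 25 ng/hr (log2 difference -0.78, adjusted p 0.0677).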
